A study of Mus musculus with 9 samples.

Results

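Liver transcripts of mice given faecal transfer before concanavalin A (FMT-Con A) were compared with those of mice given concanavalin A alone (Con A), in 6 of the 9 libraries of the series, 3 in each group. Members were all libraries that carry these labels, and all 17704 genes that passed a count filter applied with the groups in view. All animals were C57BL/6J mice, and the labels name no engineered allele. Con A mice were gavaged with saline for 4 weeks and then received concanavalin A, 10 mg/kg, in the tail vein on the day of collection. FMT-Con A mice were gavaged for those 4 weeks with faeces of mice that had concanavalin A hepatitis, and then had the same injection. WT mice, 3 libraries, had saline only and are given below for scale, and they enter the fit. The labels give no hour between injection and collection, and they tag the sex as female in 1 field and male in another. The Y-linked gene Ddx3y lay between 99.8 and 259 CPM (counts scaled to a common library size) in all 9 libraries.

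Concanavalin A is a plant lectin that cross-links glycoproteins on T cells and, given by vein to mice, causes an acute hepatitis driven by T cells, NKT cells and interferon-gamma. It is used as a model of autoimmune hepatitis. Blood from the gut reaches the liver through the portal vein, so bacterial products from the intestine meet Kupffer cells, the resident macrophages, and sinusoidal endothelium first. Type I interferons and interferon-gamma act through STAT factors and switch on partly overlapping sets of antiviral and antibacterial genes.

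Faecal transfer before the injection went with lower expression of interferon-stimulated, cytokine, NF-kappaB and p53 target genes, and of several hepatocyte genes. Of 17704 genes, 2981 passed an edgeR adjusted p of 0.05 (16.8%), and these are called changed below. Of them 1108 were higher in FMT-Con A (6.26%) and 1873 lower (10.6%), and 644 and 799 of these changed at least 2-fold. The shares of 6.26% and 10.6% are the measure for each list's counts below. All 3 libraries of one group lay above all 3 of the other for 2472 genes that were higher (14.0%) and 3320 that were lower (18.8%). Over all genes the median log2 fold change was -0.01. Beyond a number for each mouse, no label states that the libraries of a group are separate animals, and p-values here reflect only the scatter among libraries.

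Skeletal muscle transcripts differed between these liver libraries before any group difference is read. A list of 34 muscle genes summed to 15, 27.1 and 2550 CPM in Con A 1, 2 and 3. It summed to 24100, 2290 and 24000 CPM in FMT-Con A 1, 2 and 3, against 59.7 to 76.5 in WT. Con A 3 and FMT-Con A 2 thus had like muscle sums, and FMT-Con A 1 and 3 about 10 times as much.

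Acta1, the actin of skeletal muscle, was at 0.209, 0.775 and 331 CPM in Con A and at 2860, 311 and 2560 after the transfer (edgeR adjusted p = 0.165, log2 fold change 4.11, SE 1.94). Myh4, a fast myosin heavy chain, was at 0.209, 0.872 and 179 against 3790, 227 and 3850 CPM (edgeR adjusted p = 0.088). Ckm, muscle creatine kinase, was at 0.0523, 0.194 and 126 against 974, 119 and 919 CPM (edgeR adjusted p = 0.16). Ttn, the giant sarcomere protein titin, was at 0.314, 1.11 and 308 against 1940, 166 and 2080 CPM (edgeR adjusted p = 0.186). In each of Acta1, Ckm and Ttn the groups overlapped, since Con A 3 lay above FMT-Con A 2. In Myh4 they did not, by the margin of 179 to 227 CPM. Of the 33 muscle genes that passed the count filter 5 were called higher, namely Actn3, Tnnt1, Pvalb, Neb and Eno3, and the list's median log2 fold change was 3.93. Without Con A 3, all 33 were called.

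**Figure D1:**
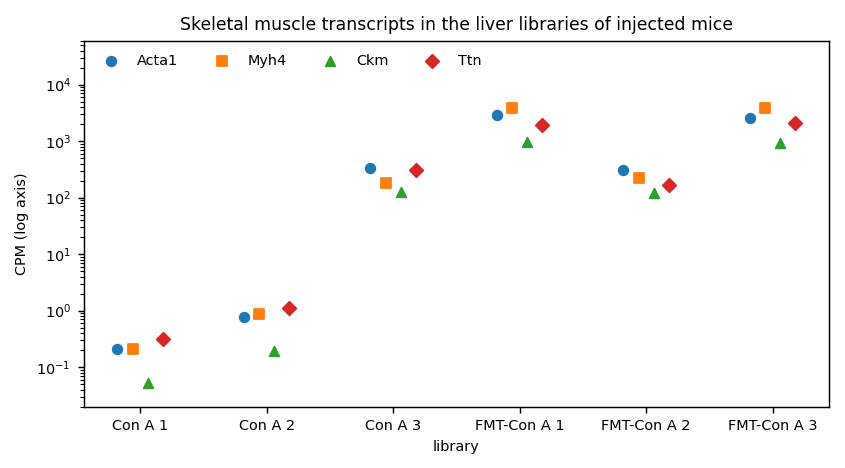
CPM of 4 skeletal muscle genes (Acta1, Myh4, Ckm, Ttn) on a log axis in each library of injected mice. Con A 1 and 2 lie near or below 1 CPM, Con A 3 and FMT-Con A 2 between 119 and 331, and FMT-Con A 1 and 3 between 919 and 3850.

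These values stand beside every rise reported here. With the muscle sum of each library as a covariate, 82 genes were called higher (0.463%) and 291 lower (1.64%). Among them were 45 of the genes called higher and 262 of those called lower in the main comparison. FMT-Con A 1 and 3 had far higher sums than any Con A library, so the covariate overlaps with the contrast and can widen its error. A call lost with it cannot be read as a change made by muscle, nor as one not made by it. In the type I interferon list calls fell from 33 to 12 while the median went from -1.14 to -1.08. In the list of xenobiotic cytochromes P450 the median went from -0.64 to 0.24. In the pair with like muscle sums, FMT-Con A 2 lay above Con A 3 in 963 of the 1108 genes called higher, where 49.3% of all genes did. It lay below Con A 3 in 1859 of the 1873 genes called lower, where 50.2% of all genes did. Both libraries also belong to the comparison that chose these genes, so the counts are a description. With FMT-Con A 2 as the sole library after transfer, 99 genes were called, 32 higher and 67 lower.

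The number of calls also rested on single libraries. It fell to 664 without FMT-Con A 1, to 778 without FMT-Con A 3 and to 812 without Con A 1. Without FMT-Con A 2 it rose to 4053, with 1908 higher. Genes called lower numbered 513 without FMT-Con A 1, 580 without FMT-Con A 3 and 620 without Con A 1, against 1873 in the main comparison. List counts given below without a library stand beside these smaller totals. FMT-Con A 1 and 3 were the most alike of the pairs among injected mice, at 2.51 times the chi-square that sampling gives (median over genes), and were not identical. Con A 2 and FMT-Con A 2 were 9.72 apart on that scale, and Con A 1 and 2 were 10.1 apart. Con A 3 was 6.53 from Con A 1 and 16.8 from FMT-Con A 2. On the first principal component of the 6 libraries, 63.7% of the variance, Con A 1, 2 and 3 lay at -90.6, -70.17 and -11.31. FMT-Con A 1, 2 and 3 lay at 78.02, 16.05 and 78.01. Con A 3 and FMT-Con A 2, which had like muscle sums, were thus neighbours on it, each far from the rest of its group. Transfer and muscle level were not told apart on the first component. On the second, 16% of the variance, Con A 3 and FMT-Con A 2 lay at opposite ends, at 51.29 and -41.49.

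**Figure D2:**
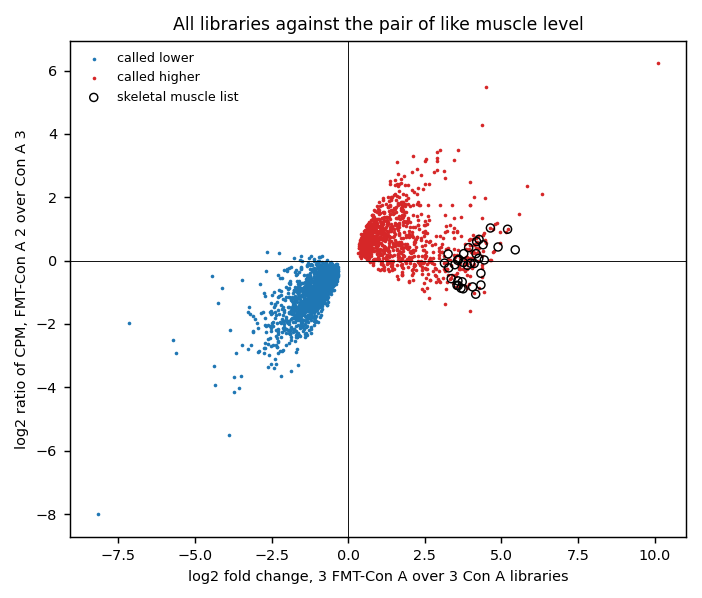
Log2 ratio of CPM in FMT-Con A 2 over Con A 3 (vertical) against the log2 fold change over all 6 libraries (horizontal) for each gene called higher (red) or lower (blue), with the skeletal muscle list circled. Genes called lower lie below 0 on both axes in 1859 of 1873 cases, and the muscle list lies within about 1 of 0 on the vertical axis at log2 fold changes of 3 or more.

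Type I interferon response genes were lower after the transfer. Of 40 tested, 33 were called lower and 0 higher, against 10.6% of all genes lower, and the list's median log2 fold change was -1.14. The 7 that did not pass included Irf9 and Stat2, factors that carry the signal to the nucleus, and Zbp1, Ifi35, Ifi27l2a and Eif2ak2. In 23 lists described here 0 members were called higher by edgeR, while together 9 of their members were higher at an unadjusted p under 0.05 and DESeq2 called 7. These do not include the dendritic cell, B cell, mitochondrial genome, ribosomal protein, proteasome and cholesterol lists, whose values stand beside their counts. For most lists the count is also given without the library of injected mice whose omission lowered it most.

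Promoters of Isg15, Rsad2 and Gbp5 are printed here because these genes fell together and hold letters that interferon-activated factors are known to recognise. The sequences are the 250 bases before the transcription start, 5′ to 3′ on the gene's strand, from the RefSeq table for GRCm38.p6. Isg15 encodes a ubiquitin-like modifier and its bases lie at chr4:156200819-156201068 on the minus strand. Rsad2 encodes viperin, an antiviral enzyme of the endoplasmic reticulum, at chr12:26456453-26456702 on the minus strand. Gbp5, a guanylate-binding protein induced by interferon-gamma, has its bases at chr3:142496684-142496933 on the plus strand. Capitals mark matches to GAAA, 2 free bases and GAAA (the core of the interferon-stimulated response element, ISRE) on either strand, and in Gbp5 also matches to TTCNNNGAA (the gamma-activated site, GAS).
Isg15: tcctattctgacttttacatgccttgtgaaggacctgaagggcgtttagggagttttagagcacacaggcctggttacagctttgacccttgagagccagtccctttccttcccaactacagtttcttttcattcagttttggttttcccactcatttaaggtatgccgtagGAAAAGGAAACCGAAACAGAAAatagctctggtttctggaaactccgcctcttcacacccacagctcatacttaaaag
Rsad2: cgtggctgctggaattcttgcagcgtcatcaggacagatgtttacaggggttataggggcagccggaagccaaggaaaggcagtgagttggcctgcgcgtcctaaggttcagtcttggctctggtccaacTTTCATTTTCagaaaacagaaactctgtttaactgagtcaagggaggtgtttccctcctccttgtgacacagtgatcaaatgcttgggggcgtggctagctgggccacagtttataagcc
Gbp5: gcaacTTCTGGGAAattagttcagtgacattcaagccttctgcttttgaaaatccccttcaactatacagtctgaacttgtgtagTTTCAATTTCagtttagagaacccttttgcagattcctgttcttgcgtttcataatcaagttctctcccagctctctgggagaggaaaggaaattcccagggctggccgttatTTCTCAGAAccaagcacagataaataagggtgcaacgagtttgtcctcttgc
In Isg15, 3 overlapping ISRE matches form a single block. Windows of 300 bases that also take in the first bases of the transcript were available for 29 of the 40 type I members, and 15 of them held an ISRE match (51.7%). The same match was in 3.86% of the 11368 tested genes with a window. Of the 25 members with a window that were called lower 13 held it (52.0%), so members called lower and members tested had a like share. Among 21 interferon-gamma response members with a window, 12 held the ISRE letters (57.1%) and 9 the GAS letters (42.9%, against 8.53% of the tested genes). Of the 11 of them called lower, 9 held the ISRE letters (81.8%) and 6 the GAS letters (54.5%). The match is a description of letters and not of factor binding. Mx1, Nos2, Gbp9 and Dhx58 had no entry. The windows of Ifit2 and Oasl2 held no ISRE match, and that of Cxcl9 held no GAS match.

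Mx1, a dynamin-like GTPase that blocks influenza viruses where its allele is intact, was at 50.9, 20.2 and 21.9 CPM in Con A and at 3, 4.51 and 3.2 after the transfer (edgeR adjusted p = 0.00199, log2 fold change -3.12, SE 0.36). All FMT-Con A values lay below the WT values of 9.74, 9.59 and 7.97. Ifit2, which binds viral RNA and restrains translation, was at 553, 179 and 195 CPM in Con A and 19.2, 59.9 and 22.1 after the transfer (edgeR adjusted p = 0.00687, log2 fold change -3.2, SE 0.54). Con A 1 was the high library of its group in both genes, and FMT-Con A 2 the high library of the other.

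Rsad2 went from 578, 141 and 194 CPM to 28.2, 54.3 and 28.8 (edgeR adjusted p = 0.00695, log2 fold change -3.04, SE 0.52), so that its groups, too, did not overlap. Oasl2, of the oligoadenylate synthetase-like family, was even within each group, at 162, 155 and 161 CPM in Con A and 51.9, 70.6 and 54.1 after the transfer (edgeR adjusted p = 0.00196, log2 fold change -1.44, SE 0.16). Isg15 was at 430, 435 and 280 against 172, 238 and 153 CPM (log2 fold change -1.03, edgeR adjusted p = 0.0439). Dhx58 (the helicase LGP2) and Phf11d fell by 1.5 and 1.25 on the log2 scale, with edgeR adjusted p = 0.0018 and 0.00147. The list's call count was 21 without FMT-Con A 1, 12 with the muscle covariate and 1 with FMT-Con A 2 alone. Its median was -1.08 with the covariate, and -1.03 in FMT-Con A 2 over Con A 3.

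Genes of the interferon-gamma response were lower in part. Of 34 tested, 18 were called lower and 0 higher, with a median of -0.88, and 12 were called without Con A 1. Nos2, the inducible nitric oxide synthase on chromosome 11 at 78920787 to 78960254, was at 320, 191 and 270 CPM in Con A and at 22.2, 15 and 22 after the transfer. Its log2 fold change of -3.72 (SE 0.23, edgeR adjusted p = 0.000314) was called under every alternative setting tried, with FMT-Con A 2 alone included. WT libraries had 0.209 to 0.234 CPM of Nos2, so that both injected groups lay far above WT. Gbp9 and Gbp5, guanylate-binding proteins that act on pathogen vacuoles, went from 599, 352 and 560 to 105, 84.3 and 112 CPM, and from 586, 463 and 416 to 151, 118 and 157 CPM. Their log2 fold changes were -2.33 (SE 0.22) and -1.78 (SE 0.18), both with edgeR adjusted p = 0.00147, and both stayed called in every setting tried.

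Members at the top of the pathway and its classical chemokines did not all pass. Irf1, an interferon-induced transcription factor, was at 620, 643 and 348 CPM in Con A and 461, 234 and 430 after the transfer (edgeR adjusted p = 0.253). Cxcl9, a T cell chemokine, was at 5930, 6180 and 4440 against 3250, 3660 and 3330 CPM (edgeR adjusted p = 0.0564, log2 fold change -0.69, SE 0.22), with no overlap of the groups. Cxcl9 was called without Con A 3 and by DESeq2. Irf8, a myeloid factor, passed, at 203, 180 and 206 against 87.2, 75.1 and 85.4 CPM (edgeR adjusted p = 0.00218, log2 fold change -1.25, SE 0.15).

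**Figure D3:**
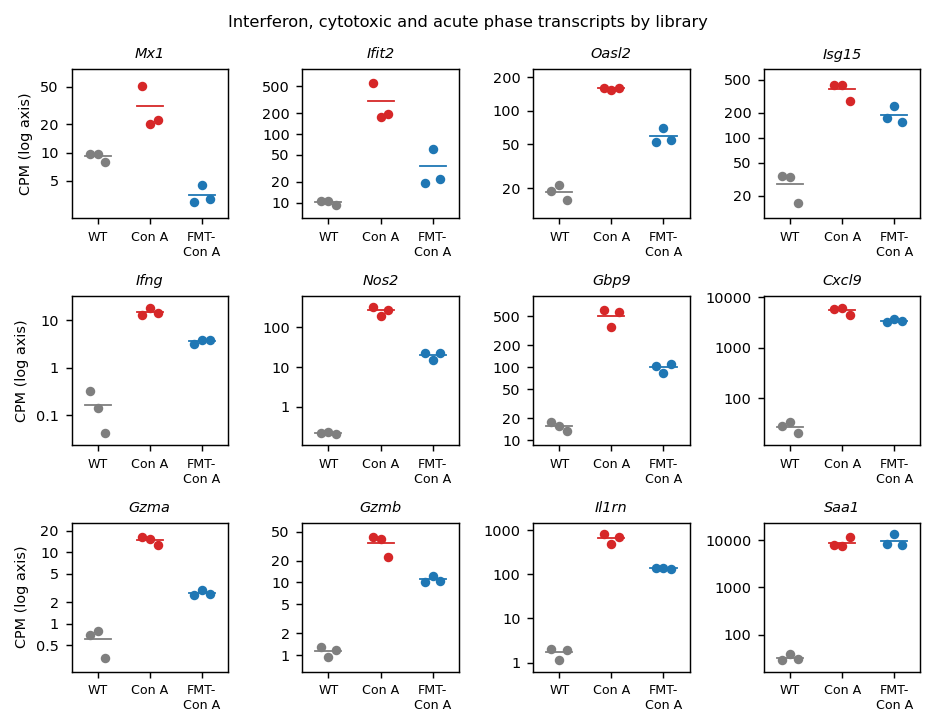
CPM on log axes in each library (points, in the order 1 to 3) with group means (bars) for 12 interferon, cytotoxic and acute phase genes. Mx1 lies below its WT level after the transfer, Nos2 and Ifng lie between WT and Con A, and Saa1 overlaps between the injected groups.

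Cytokines followed the same direction. Of 23 tested, 11 were called lower and 0 higher, with a median of -1.03, but 3 were called without Con A 1. Ifng, the cytokine that drives this hepatitis model, was at 12.7, 18.5 and 14.5 CPM in Con A and 3.12, 3.79 and 3.85 after the transfer (edgeR adjusted p = 0.00353, log2 fold change -2.09, SE 0.29). Il1rn, the interleukin-1 receptor antagonist, went from 819, 490 and 701 CPM to 136, 140 and 132 (edgeR adjusted p = 0.00149, log2 fold change -2.3, SE 0.24). Neither gene's groups overlapped. Il6 was at 2.88, 1.16 and 1.78 against 0.599, 0.427 and 0.724 CPM (edgeR adjusted p = 0.0308), a call lost on leaving out any of Con A 1, Con A 3 and the 3 FMT-Con A libraries. Tnf was at 11.9, 17.5 and 7.7 against 6.94, 3.6 and 7.58 CPM and did not pass (edgeR adjusted p = 0.0664), though DESeq2 called it, as did edgeR without Con A 3.

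Most chemokines did not pass the test. Of 26 tested, 7 were called lower, beside 10.6% of all genes, and 1 higher, beside 6.26%. The number called lower was 2 without FMT-Con A 1 and 0 with the muscle covariate or with FMT-Con A 2 alone, by edgeR, while DESeq2 on all libraries called 9. Ccl4, which attracts monocytes and NK cells, fell from 13.6, 9.11 and 7.08 to 3, 2.89 and 2.97 CPM (edgeR adjusted p = 0.0042, log2 fold change -1.74, SE 0.26). Cxcl14 was the member called higher, and it followed the muscle levels, at 0.366, 0.727 and 2.69 CPM in Con A and 8.51, 2.56 and 7.96 after the transfer (edgeR adjusted p = 0.0379). The part of muscle tissue in its rise was not tested.

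Granule genes of cytotoxic lymphocytes were lower, while most T and NK cell markers did not pass. Of 27 tested, 7 were called lower, beside 10.6% of all genes, 0 were called higher and 20 did not pass. The median was -0.81, and FMT-Con A 2 lay above Con A 3 in 15 of the 27. Gzma, a granule protease, went from 16.5, 15.4 and 12.7 to 2.52, 2.99 and 2.59 CPM (edgeR adjusted p = 0.00147, log2 fold change -2.46, SE 0.25). Gzmb, which triggers apoptosis in target cells, went from 42.3, 39.7 and 22.7 to 10.2, 12.4 and 10.4 CPM (edgeR adjusted p = 0.00296, log2 fold change -1.67, SE 0.22). Prf1, the pore protein perforin, went from 4.34, 3.97 and 2.86 to 0.631, 0.617 and 0.572 CPM (edgeR adjusted p = 0.00278, log2 fold change -2.61, SE 0.34). In all 3 genes each FMT-Con A library lay below each Con A library.

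The summed level of all 30 T and NK markers was 135, 143 and 85.3 CPM in Con A and 66.6, 75 and 65.6 after the transfer, against 32.8 to 39.2 in WT. Summed levels did not overlap, and the exact two-sided permutation p of 0.1 is the smallest that 3 against 3 allows. In bulk liver, fewer cells of a type and less RNA per cell cannot be told apart. Cd3e, part of the T cell receptor complex, was at 8.53, 4.99 and 1.74 CPM in Con A and 1.29, 1.85 and 1.3 after the transfer, so that Con A 3 overlapped with the transfer group (edgeR adjusted p = 0.0424). The list's median was 0.02 with the muscle covariate and 0.08 in FMT-Con A 2 over Con A 3. Call counts were 3 without FMT-Con A 1 and 1 with the covariate.

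Among other immune cells, 5 of 14 Kupffer cell markers were called lower, beside 10.6% of all genes, and 0 higher. The number called lower was 1 without FMT-Con A 1 and 13 without FMT-Con A 2. The Kupffer sum was 270, 267 and 293 CPM in Con A and 152, 229 and 156 after the transfer, without overlap. Neutrophil markers had 2 of 15 called lower (Mmp8 and Ngp), a share near the 10.6% of all genes. The sum of all 18 on the list overlapped, at 671, 782 and 754 against 574, 812 and 534 CPM. Of 15 monocyte and infiltrating macrophage markers 1 was called higher, beside 6.26% of all genes, and 2 lower, beside 10.6%, with a median of -0.11. The 2 lower were Cd68, also on the Kupffer cell list, and Arg1, also on the urea cycle list described below. Ccr2, the receptor that brings monocytes out of the marrow, rose from 3.82, 3.59 and 3.48 to 5.96, 7.45 and 7.62 CPM (edgeR adjusted p = 0.00911, log2 fold change 0.95, SE 0.17). With the muscle covariate its log2 fold change was 1.08 and it was not called (edgeR adjusted p = 0.0914). Cd68, a lysosomal protein of macrophages, fell from 22.3, 20.2 and 23.7 to 9.71, 10.3 and 10.4 CPM (edgeR adjusted p = 0.00199, log2 fold change -1.12, SE 0.13). Of 7 dendritic cell and 13 B and plasma cell markers 0 were called by edgeR, 0 passed an unadjusted p of 0.05 and DESeq2 called 0.

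Part of a list of bacterial sensing genes, which also holds sensors of fungal glucan and single-stranded RNA, was lower. Of 23 tested 8 were called lower, beside 10.6% of all genes, and 0 higher, with a median of -0.41. By edgeR 4 were called lower without Con A 1 and 2 with the muscle covariate. The sum of all 24 on the list overlapped, at 1560, 1420 and 1720 CPM in Con A and 1430, 1670 and 1380 after the transfer. Clec7a, the receptor dectin-1 for fungal beta-glucan, went from 19.9, 18.7 and 26.8 to 6.43, 6.88 and 6.48 CPM (edgeR adjusted p = 0.00147, log2 fold change -1.72, SE 0.17). Tlr2, a receptor for bacterial lipopeptides, went from 201, 147 and 125 to 70.3, 51.7 and 68.4 CPM (edgeR adjusted p = 0.00534, log2 fold change -1.32, SE 0.21). Tlr7, which senses single-stranded RNA, was at 2.98, 2.76 and 2.69 against 0.441, 0.854 and 0.457 CPM, and so fell below its WT range of 2.15 to 2.76 (log2 fold change -2.28, edgeR adjusted p = 0.00285).

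Of 20 genes of NF-kappaB feedback and adhesion, 11 were called lower and 0 higher, with a median of -0.82, and 7 were called without FMT-Con A 1. Tnfaip3 encodes A20, an inhibitor of the pathway, and was at 416, 298 and 271 against 124, 75.2 and 127 CPM (edgeR adjusted p = 0.00412, log2 fold change -1.59, SE 0.23). Rel, a subunit of NF-kappaB, and Zc3h12a, which degrades cytokine messages, fell by 1.21 and 1.27 on the log2 scale (edgeR adjusted p = 0.0022 and 0.00251). In these 3 genes FMT-Con A 2 was the lowest library, and FMT-Con A 2 alone gave a call in each.

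Antigen presentation was lower for some members. For class II, 5 of 10 genes were called lower, with 1 called without Con A 1. H2-Ab1, a class II chain, was at 28, 30.2 and 23.3 against 12.6, 15.7 and 11.1 CPM (edgeR adjusted p = 0.00546, log2 fold change -1.05, SE 0.17). For class I, 10 of 18 were called lower, with 3 called without FMT-Con A 1. With the muscle covariate 0 members of either list were called by edgeR.

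Most acute phase genes did not pass the test. Of 29, 3 were called lower (Hamp, Il1rn, Cp), beside 10.6% of all genes, and 0 higher, and the median was -0.04. The count was 1 without FMT-Con A 1 and 8 without FMT-Con A 2. Saa1, a major acute phase protein nearly identical to Saa2 in sequence, was at 7750, 7370 and 11400 CPM in Con A and 8330, 13300 and 7700 after the transfer (edgeR adjusted p = 0.733, log2 fold change 0.15, SE 0.27). Hamp, the iron hormone hepcidin, was at 1490, 1280 and 996 against 656, 670 and 587 CPM (edgeR adjusted p = 0.0149, log2 fold change -0.98, SE 0.2), a call lost without Con A 1, FMT-Con A 1 or FMT-Con A 3.

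Most p53 targets were lower. Of 16 p53 targets 12 were called lower and 0 higher, with a median of -1.2 over the list and -1.16 in FMT-Con A 2 over Con A 3, and 9 were called without Con A 1. Tnfrsf10b, a death receptor for TRAIL, went from 13.2, 10.5 and 10.1 to 3.28, 3.51 and 2.67 CPM (edgeR adjusted p = 0.00218, log2 fold change -1.84, SE 0.22). Mdm2, which marks p53 for degradation, was at 216, 129 and 158 against 75.9, 68.1 and 78.3 CPM (edgeR adjusted p = 0.00489). Cdkn1a, the cell cycle inhibitor p21, did not pass, at 354, 193 and 249 against 126, 183 and 118 CPM (edgeR adjusted p = 0.157).

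Of 28 cell death genes 12 were called lower and 16 did not pass, and 4 were called without FMT-Con A 1. Bid, which links death receptors to mitochondria, went from 34.4, 31.3 and 30.9 to 15.8, 13.6 and 17.1 CPM (edgeR adjusted p = 0.00218, log2 fold change -1.06, SE 0.13). Mlkl, the effector of necroptosis, went from 87.4, 68.6 and 86.4 to 40.8, 42.3 and 38.3 CPM (edgeR adjusted p = 0.00283, log2 fold change -1, SE 0.13). Both genes' groups stood apart with no overlap. Of 22 NRF2 and antioxidant genes 9 were called lower and 13 did not pass, and 4 were called without Con A 1. Hmox1, the haem-degrading enzyme, was at 617, 415 and 449 against 184, 236 and 192 CPM (edgeR adjusted p = 0.0056). Among them also Nfe2l2, which encodes NRF2 itself, was at 193, 205 and 148 against 66.3, 40.2 and 68.5 CPM (edgeR adjusted p = 0.00285, log2 fold change -1.64, SE 0.22).

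The unfolded protein and integrated stress response list was mixed, with a median of -0.1. Of 22, 5 were called lower, beside 10.6% of all genes, and 2 higher (Sdf2l1 and Chac1), beside 6.26%. Without FMT-Con A 3 the number called lower was 3. With the muscle covariate edgeR called 0 members higher. Chac1, a glutathione-degrading enzyme, was at 4.55, 2.47 and 7.41 CPM in Con A and 13.4, 14 and 13 after the transfer (edgeR adjusted p = 0.0371, log2 fold change 1.48, SE 0.41). Of 16 heat shock genes 2 were called lower, beside 10.6% of all genes, and 0 higher, with a median of -0.06.

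Immediate early genes and growth signals were lower too. Of 24 immediate early genes 15 were called lower and 0 higher, with a median of -0.84, and 6 were called without FMT-Con A 3. Maff, a small bZIP factor, went from 111, 70.4 and 64.9 to 26.8, 19.8 and 25 CPM (edgeR adjusted p = 0.00199, log2 fold change -1.78, SE 0.2) and kept its call in every setting tried. Of 25 growth and repair signals 12 were called lower and 0 higher, and 5 without FMT-Con A 1.

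Tgfa and Areg, ligands of the EGF receptor, went from 60.4, 38.6 and 56.4 to 15.4, 16.6 and 17.6 CPM, and from 2.51, 2.62 and 2.82 to 0.347, 0.285 and 0.533 CPM. Their log2 fold changes were -1.65 (SE 0.16, edgeR adjusted p = 0.00147) and -2.75 (SE 0.38, edgeR adjusted p = 0.00332). In cell cycle genes 1 of 30 was called lower (Ccnd1), beside 10.6% of all genes. Mki67, the proliferation marker, was at 7.69, 8.67 and 8.2 against 4.57, 5.98 and 4.31 CPM (edgeR adjusted p = 0.0844). DESeq2 called Mki67, and so did edgeR with a replicate term.

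**Figure D4:**
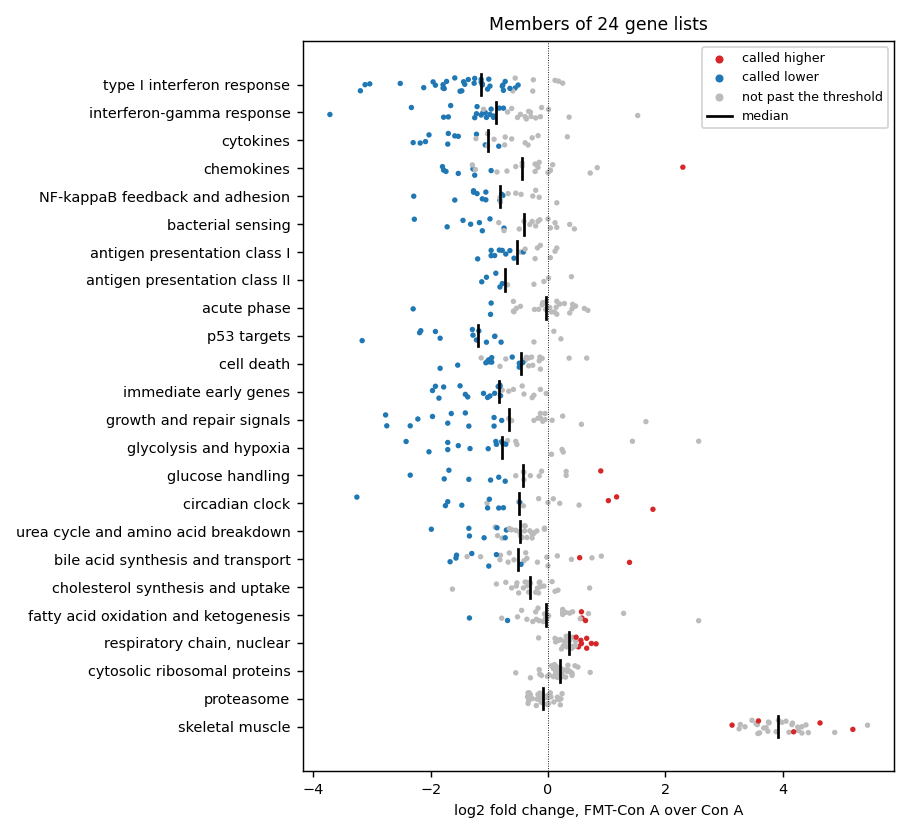
Log2 fold change of every tested member (points) of 24 gene lists, with the list's median (black bar). Blue points were called lower, red points higher and grey points did not pass. Interferon, cytokine, p53 and glycolysis lists have medians below -0.7, the acute phase, fatty acid oxidation and proteasome lists lie near 0, and the skeletal muscle list has a median of 3.93.

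Genes of glucose use were lower. Of 20 glycolysis and hypoxia genes 12 were called lower and 0 higher, with a median of -0.78. The median was -1.03 with the muscle covariate, where 6 were called, and 5 were called without FMT-Con A 1. Adm, the vasodilator peptide adrenomedullin, went from 178, 109 and 130 to 30.8, 12.2 and 34.8 CPM (edgeR adjusted p = 0.00353, log2 fold change -2.42, SE 0.34). Slc2a1, the glucose transporter GLUT1, went from 161, 83.5 and 160 to 46.9, 34.1 and 42.6 CPM (edgeR adjusted p = 0.00412, log2 fold change -1.71, SE 0.25). Both stayed above their WT ranges of 0.655 to 0.793 and 6.97 to 9.31 CPM.

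Of 17 glucose handling genes 7 were called lower and 1 higher, and 3 lower without Con A 1. Igfbp1, an insulin-suppressed binding protein of growth factors, went from 2280, 866 and 1540 to 310, 297 and 314 CPM (edgeR adjusted p = 0.00962, log2 fold change -2.35, SE 0.43). Pck1, the rate-limiting enzyme of gluconeogenesis, went from 1480, 1230 and 947 to 302, 489 and 283 CPM, where WT had 1560 to 2400 (edgeR adjusted p = 0.00501, log2 fold change -1.77, SE 0.27).

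The circadian clock list was mixed, with 9 of 20 called lower and 3 higher, beside 10.6% and 6.26% of all genes. Without FMT-Con A 1 the counts were 6 and 2. Nr1d1 encodes the repressor REV-ERBalpha on chromosome 11 at 98767932 to 98775333. It went from 162, 118 and 87.2 to 13.8, 12.5 and 11.8 CPM (edgeR adjusted p = 0.00147, log2 fold change -3.26, SE 0.3), inside the WT range of 7.96 to 15.2. Bhlhe40, another repressor of the clock, fell from 578, 301 and 432 to 139, 119 and 142 CPM (edgeR adjusted p = 0.00258, log2 fold change -1.71, SE 0.22). The members called higher included Arntl and Cry1, which REV-ERBalpha is known to repress.

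Cry1 was at 7.01, 9.6 and 8.69 CPM in Con A and 18.8, 14.9 and 23.2 after the transfer (edgeR adjusted p = 0.0053, log2 fold change 1.17, SE 0.18). Arntl, the activator BMAL1, was at 7.01, 5.33 and 6.91 against 14.8, 8.92 and 15.7 CPM (edgeR adjusted p = 0.0163, log2 fold change 1.03, SE 0.22). In both genes FMT-Con A 2 was the lowest of its group. With the muscle covariate 0 clock members were called higher by edgeR. Ciart, a clock-controlled repressor, fell from 38.6, 48.2 and 30.3 to 13.3, 16.2 and 12.7 CPM (edgeR adjusted p = 0.00814, log2 fold change -1.47, SE 0.26). The labels give no hour of collection.

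The bases before the Ciart start, chr3:95882229-95882478 on the minus strand of GRCm38.p6 from the RefSeq table, are shown because they hold 3 copies of the E-box CACGTG (capitals; the letters read the same on both strands), to which the CLOCK and BMAL1 pair is known to bind.
Ciart: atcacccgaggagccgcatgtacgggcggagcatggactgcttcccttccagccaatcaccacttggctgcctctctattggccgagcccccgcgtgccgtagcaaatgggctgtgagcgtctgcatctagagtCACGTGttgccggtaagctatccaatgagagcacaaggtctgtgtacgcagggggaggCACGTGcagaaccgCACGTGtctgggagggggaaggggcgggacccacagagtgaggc
The E-box was in the window of 5 of 17 clock members (29.4%), in 1 of the 8 among them called lower (12.5%), and in 11.3% of the tested genes with a window.

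Liver factors and nuclear receptors changed in both directions. Of 30, 3 were called higher (Foxa2 and Esr1 among them), beside 6.26% of all genes, and 6 lower, beside 10.6%. The counts were 2 higher without Con A 1 and 1 lower without FMT-Con A 1. With the muscle covariate 0 were called higher and 1 lower by edgeR. Foxa2, a pioneer factor of hepatocyte genes, was at 3.87, 6.3 and 5.46 CPM in Con A and 17.5, 16.3 and 18.7 after the transfer (edgeR adjusted p = 0.00218, log2 fold change 1.74, SE 0.21), against 31.7 to 49.8 in WT. FMT-Con A 2, with a muscle sum like that of Con A 3, stood above Con A 3 by 1.56 on the log2 scale. With the muscle covariate the log2 fold change was 1.55 and Foxa2 was not called (edgeR adjusted p = 0.0567). All FMT-Con A values of Foxa2 lay between the Con A and the WT values.

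**Figure D5:**
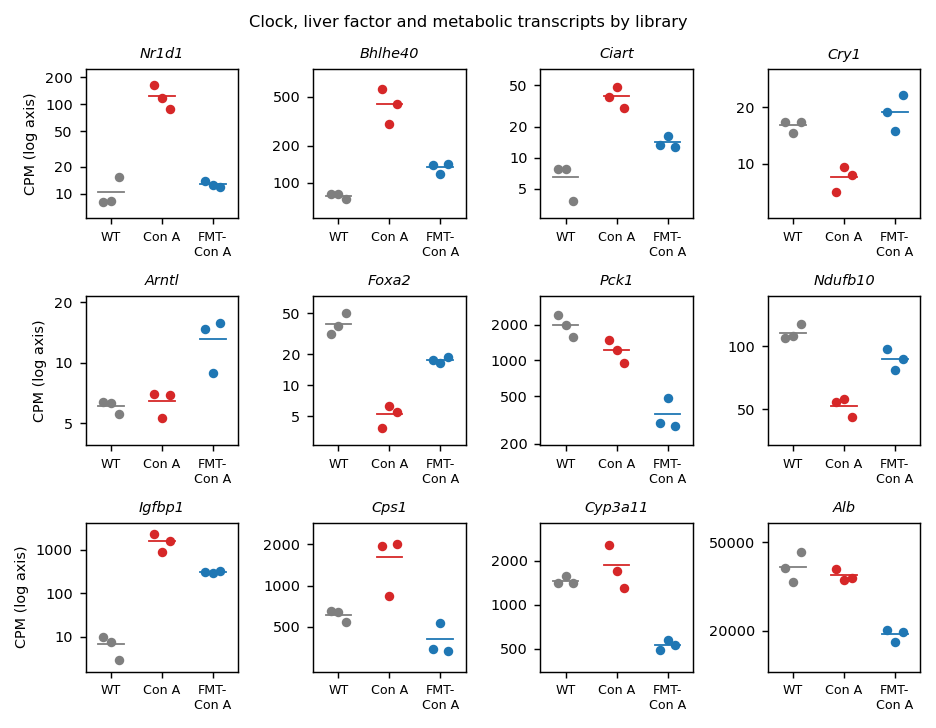
CPM on log axes in each library (points, in the order 1 to 3) with group means (bars) for 12 clock, liver factor and metabolic genes. Nr1d1 lies in the WT range after the transfer, Foxa2 lies between Con A and WT, and Cyp3a11 and Alb lie below both.

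Transcripts of hepatocyte function were lower for a minority of genes. Alb, serum albumin, was at 38000, 33800 and 34400 CPM in Con A and 20200, 17800 and 19700 after the transfer, against 33200 to 44900 in WT (edgeR adjusted p = 0.0221, log2 fold change -0.88, SE 0.21). The Alb call was lost without Con A 1, FMT-Con A 1 or FMT-Con A 3, although the groups did not overlap. The sum of 15 hepatocyte markers was 81600, 77400 and 77400 CPM in Con A and 60700, 66700 and 58900 after the transfer. Muscle genes took 24100, 2290 and 24000 CPM in FMT-Con A 1, 2 and 3 (2.41, 0.229 and 2.4% of counts). Their part in the lower hepatocyte sum was not tested.

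Of 30 urea cycle and amino acid genes 7 were called lower, beside 10.6% of all genes, and 0 higher. The number called lower was 3 without Con A 1 and 16 without FMT-Con A 2. Cps1, which starts the urea cycle, was at 1960, 836 and 2030 against 345, 534 and 333 CPM, where WT had 540 to 652 (edgeR adjusted p = 0.00651, log2 fold change -1.99, SE 0.33). Arg1, arginase, went from 884, 771 and 896 to 373, 460 and 363 CPM (edgeR adjusted p = 0.00337, log2 fold change -1.09, SE 0.15) and lay below its WT range of 838 to 914. The list's median was -0.48 over all libraries but 0.04 in FMT-Con A 2 over Con A 3.

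Of 31 xenobiotic cytochromes P450 7 were called lower, beside 10.6% of all genes. Of 31 conjugation enzymes 12 were lower, and 1 was higher (Nnmt), beside 6.26% of all genes. The P450 and conjugation medians of -0.64 and -0.74 became 0.24 and 0.05 with the muscle covariate. In FMT-Con A 2 over Con A 3 they were 0.18 and 0.09. Without FMT-Con A 1, 1 of the P450 genes was called lower, and without Con A 1, 0 of the conjugation enzymes were called lower by edgeR, while DESeq2 on all libraries called 18. Cyp3a11, a main drug-oxidising P450, was at 2570, 1710 and 1300 against 494, 576 and 528 CPM (edgeR adjusted p = 0.00285, log2 fold change -1.8, SE 0.24), below WT at 1410 to 1560. Cyp2e1, which oxidises ethanol, was at 4270, 4470 and 3360 against 2890, 4670 and 2830 CPM (edgeR adjusted p = 0.529).

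Of 28 coagulation genes 7 were called lower, beside 10.6% of all genes, and 21 did not pass. Without Con A 1, 3 were called lower. F11, coagulation factor XI, went from 209, 149 and 176 to 41.5, 48.8 and 39.1 CPM, below WT at 96.1 to 115 (edgeR adjusted p = 0.00147, log2 fold change -2.04, SE 0.16), and was called in every setting tried. F3, tissue factor, which starts clotting, went from 43.5, 12.6 and 20 to 4.04, 2.61 and 3.16 CPM (edgeR adjusted p = 0.00332, log2 fold change -2.94, SE 0.41). Cyp7a1, which commits cholesterol to bile acids, stayed low in both injected groups, at 0.209, 0.0969 and 0.248 against 0.378, 0.522 and 0.191 CPM, where WT had 88.6 to 132.

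Growth hormone pulses set sex-typed liver expression. The growth hormone list had 6 of 20 called lower and 1 higher, beside 10.6% and 6.26% of all genes. It had 2 called lower without Con A 1 and 11 without Con A 3. Elovl3, a fatty acid elongase more abundant in male liver, was at 36.9, 8.04 and 24.8 against 0.473, 2.37 and 0.686 CPM, where WT had 37.9 to 43 (edgeR adjusted p = 0.00413, log2 fold change -4.38, SE 0.64). Hsd3b5, also male-typed, fell from 41.5, 17.3 and 10.5 to 2.08, 6.26 and 1.22 CPM (edgeR adjusted p = 0.0166), and Serpina12 fell by 1.84 on the log2 scale (edgeR adjusted p = 0.00695). Cux2, a repressor more abundant in female liver, was the member called higher, at 0.262, 0.242 and 0.166 against 0.851, 0.617 and 0.8 CPM (edgeR adjusted p = 0.0166). The calls of Hsd3b5 and Cux2 were lost without Con A 1, FMT-Con A 1 or FMT-Con A 3, and that of Cux2 also without Con A 3. Cux2 was not called with the muscle covariate either (log2 fold change 1.87, edgeR adjusted p = 0.195). The list's median was -0.71, and 0.04 in FMT-Con A 2 over Con A 3.

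Some mitochondrial transcripts rose. Of 33 nuclear respiratory chain genes 8 were called higher and 0 lower, with a median of 0.35, against 6.26% of all genes higher. Ndufb10, a complex I subunit, was at 54.2, 55.7 and 46.1 CPM in Con A and 96.6, 76.8 and 86.4 after the transfer, between Con A and WT at 109 to 127 (edgeR adjusted p = 0.00952, log2 fold change 0.74, SE 0.14). The list had 1 call without FMT-Con A 1, 14 without FMT-Con A 2 and 0 with the muscle covariate by edgeR, where its median was 0.48. Muscle is rich in these transcripts, the muscle sums are given above, and their part in the rise was not tested. Of 13 genes of the mitochondrial genome 0 were called by edgeR, 2 had an unadjusted p under 0.05 and DESeq2 called 1. They took 4.36, 7.13 and 3.67% of counts in Con A and 8.42, 5.49 and 8.93% after the transfer.

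In fatty acid oxidation 3 of 30 genes were called higher (Ech1, Eci1, Slc25a20), beside 6.26% of all genes, and 2 lower, beside 10.6%, with a median of -0.03. Without Con A 1, 1 was called higher, and with the muscle covariate 0 were called by edgeR. Slc25a20, the carnitine carrier of the inner membrane, was at 47.1, 54.4 and 42.2 against 69.2, 82.7 and 72.1 CPM (edgeR adjusted p = 0.0149, log2 fold change 0.64, SE 0.13), a call lost without Con A 1. Among the injected libraries FMT-Con A 2 was highest, and with the muscle covariate the gene was not called (edgeR adjusted p = 0.051). The 40 cytosolic ribosomal proteins, 32 proteasome and 24 cholesterol genes had 0 calls by edgeR, with medians of 0.2, -0.08 and -0.32. Of the ribosomal proteins 11 were higher and 1 lower at an unadjusted p under 0.05, and DESeq2 called 7 and 1. Of the proteasome genes 3 were lower and of the cholesterol genes 1 was higher and 2 lower at that level, and DESeq2 called 1 lower in each.

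The largest rises carried the pattern of the muscle genes. After leaving out the muscle lists, the 12 largest included Lrrc30, Sgca, Shisa4, Mylk4, Tbx15, Mstn, Txlnb, Myom2, Camk2a, Shisa2 and Mylk2. Mstn, the muscle growth inhibitor myostatin, was at 0, 0 and 1.37 CPM in Con A and 17.6, 2.85 and 18.2 after the transfer (edgeR adjusted p = 0.0204). Sgca, a sarcoglycan of the muscle membrane, was at 0, 0 and 0.952 against 14.2, 2.28 and 13.5 CPM (edgeR adjusted p = 0.019). In each of the 12, FMT-Con A 1 and 3 stood far above FMT-Con A 2, and none was called with the muscle covariate by edgeR.

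Of 188 rises of at least 2-fold open to the naming rule, FMT-Con A 1 and 3 were on average 4-fold or more above FMT-Con A 2 in 49. In 85 they were less than 2-fold above it. FMT-Con A 2 was at least 2-fold above Con A 3 in 57 of the 188, and 13 were called with the covariate. Of 492 such falls, FMT-Con A 2 was below Con A 3 in 491, at least 2-fold below in 367, and 161 were called with the covariate.

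Rises in which FMT-Con A 1 and 3 were on average less than 2-fold above FMT-Con A 2 were chosen after the values were seen and are described only. Gas6, a ligand of TAM receptors that bridges dying cells to macrophages, was at 62.1, 73.3 and 86 CPM in Con A and 201, 242 and 186 after the transfer, against 19 to 36.4 in WT. Acot2, a mitochondrial acyl-CoA thioesterase, was at 4.18, 3.59 and 5.13 against 22.2, 17.9 and 21.9 CPM. A2m, the protease inhibitor alpha-2-macroglobulin, was at 62.9, 40.7 and 35.8 against 136, 230 and 127 CPM, with 0.0835 to 0.234 in WT. FMT-Con A 2 was the highest library for Gas6 and A2m. Nnmt, which methylates nicotinamide, had that order too, at 97.4, 197 and 110 against 343, 562 and 333 CPM (edgeR adjusted p = 0.013, log2 fold change 1.61, SE 0.32), with its call lost without Con A 1. With the muscle covariate A2m was called (edgeR adjusted p = 0.0125, log2 fold change 2.57). Gas6, Acot2 and Nnmt were not (edgeR adjusted p = 0.0884, 0.0654 and 0.0507), at log2 fold changes of 1.34, 1.82 and 2.14. In 46 of these rises FMT-Con A 2 was also at least 2-fold above Con A 3. Of the 46, Usp2, Alpl, Gfod2 and Ggt6 had the lowest p in the main comparison. Each was called with the covariate (edgeR adjusted p = 0.0285, 0.0298, 0.031 and 0.0285). Foxa2, next by p, was not (edgeR adjusted p = 0.0567).

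Among the largest falls not yet described, Duox2, an oxidase that releases hydrogen peroxide at epithelia, went from 14.6, 9.01 and 58.7 to 2.14, 1.19 and 2.13 CPM (edgeR adjusted p = 0.00695, log2 fold change -3.9, SE 0.66). Rgs2, a brake on G protein signalling, went from 32.3, 14.4 and 16.4 to 2.05, 3.65 and 2.51 CPM (edgeR adjusted p = 0.00199, log2 fold change -2.95, SE 0.34). Gtse1, a cell cycle partner of p53, went from 7.38, 3.97 and 6.46 to 0.41, 0.949 and 0.648 CPM (edgeR adjusted p = 0.00226, log2 fold change -3.17, SE 0.39). Duox2 varied most within Con A, with Con A 3 highest, and all 3 genes had no overlap of groups. Mup4 was at 218, 199 and 49.8 against 1.36, 0.0949 and 0 CPM. The major urinary protein genes are near-identical copies and reads may be split among them, so this value is uncertain.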

How the data were processed

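Polyadenylated RNA of mouse liver was sequenced in 9 libraries. The values are read counts per gene that the authors deposited, 1 file per library, without normalisation; CASAVA, HISAT2, featureCounts and GRCm38 (mm10) are named per the submitters' processing notes, without versions or strand setting, so overlapping and near-identical genes may share reads. Totals ran from 20513051 to 29466806 counts. Each file lists 56719 genes, and GENCODE vM21 gave symbols and positions.

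All 9 libraries were fitted in edgeR 4.0.16 (R 4.3.3) with TMM factors and filterByExpr (minimum count 10, minimum total 15), which left 6 residual degrees of freedom. FMT-Con A was set against Con A with the two-sided quasi-likelihood F test, and p was adjusted by Benjamini-Hochberg over 17704 genes (edgeR adjusted p, threshold 0.05). The SE is the log2 fold change over the root of F. CPM values use TMM factors, except list sums, which use the library total alone. Reads carried no molecular identifiers, so counts are not counts of molecules. The code was tested on simulated data. Alternatives were DESeq2 1.42.0, its size factors, other filters, the 6 injected libraries only and a replicate block. Others left out each library of injected mice in turn, removed the muscle genes, or added a covariate (each library's muscle sum). FMT-Con A 2 alone was added after the values were seen.

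The comparison and the 58 gene lists were chosen with earlier results of these data known. Named genes were the 12 largest rises and 12 largest falls (past the threshold, at least 2-fold, at least 5 CPM, groups without overlap, muscle lists and predicted genes left out), in each list with a call the 4 members of lowest p, and a fixed set of 18. Not all are printed, and some members of the lists are not reported here. Isg15, Irf1, Cd3e, Cxcl14, Mdm2, Cdkn1a, Cry1, Arntl, Ciart, Esr1, Chac1, Gas6, Acot2, A2m and members of short counts were named after their values were seen. So were Usp2, Alpl, Gfod2 and Ggt6.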

Additional observations from a re-analysis of the deposited data

How the results depend on the processing

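Counts of calls depended on the libraries used more than on the tool. The total of 2981 (1108 higher, 1873 lower) became 1156 (324 and 832) with the 6 injected libraries only, 373 (82 and 291) with the muscle sum as a covariate, and 99 (32 and 67) with FMT-Con A 2 alone, whose spread is assumed to be like that of the other groups. Leaving out each library of injected mice in turn gave 664 to 4053 calls, 151 to 1908 higher and 513 to 2366 lower. WT libraries were not left out. The lowest counts came without FMT-Con A 1, the highest totals without FMT-Con A 2, and the cause was not tested. DESeq2 gave 3993 calls, no filter 3589, a mean CPM of at least 1 2924, and removal of the muscle genes 2941.

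Of 175 named genes that were called, 175 stayed called with DESeq2 size factors, 124 with the 6 libraries, 46 with the covariate and 16 with FMT-Con A 2 alone. Adm, Bid, F11, Gbp5, Gbp9, Maff, Nos2, Nr1d1, Rel, Tgfa and Zc3h12a, 11 in all, were called in every setting that gives a test. Without Con A 1, FMT-Con A 1 and FMT-Con A 3, 99, 93 and 100 stayed called. Tnnt1 reversed, to a log2 ratio of -0.08 in FMT-Con A 2 over Con A 3. Same-numbered libraries had correlations of their deviations of -0.216, 0.255 and 0.344, so the numbers were not read as pairs. A replicate block gave 2663 calls (1093 higher, 1570 lower) and 169 of the 175 named genes. In the muscle list it called 28 in place of 5. With 3 libraries a group and 6 residual degrees of freedom, small changes of low genes are not detectable at this depth.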
